A study of Homo sapiens with 6 samples.

Results

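Inflammatory cytokines and neutrophil chemokines were examined in the RNA-seq libraries of HepG2, a human liver cancer cell line. The 10 genes were chosen by symbol, and all 10 were found among the 40205 genes of the deposited counts: IL8 (current symbol CXCL8), CXCL1, CXCL2, CXCL3, IL6, CCL2, CCL20, IL1A, IL1B and LIF. The control group was 3 untreated samples (Control-1 to Control-3). The CLs group was 3 samples (CLs-1 to CLs-3) exposed for 24 h to cationic liposomes, lipid vesicles made of DOTAP, cholesterol and a PEG-lipid, at 120 μM by the sample labels. The published text gives the unit of this dose as a mass per volume in other places. Both groups were grown in medium with fetal bovine serum and sequenced as single-end reads of bulk RNA, so fewer expressing cells and less RNA per cell cannot be told apart. Nothing in the labels says that samples of a group came from separate experiments, and p-values then measure only the spread between these samples.

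Pro-inflammatory cytokines are secreted proteins that cells release upon infection, injury or stress. IL8 and CXCL1, CXCL2 and CXCL3 are CXC chemokines that draw neutrophils through the receptors CXCR1 and CXCR2, while CCL2 draws monocytes through CCR2 and CCL20 draws CCR6-bearing lymphocytes and dendritic cells. IL1A and IL1B start such programmes through NF-kB, and IL6 and LIF signal through a shared receptor subunit, IL6ST (gp130), to STAT3. In the liver, IL6 is known as the main inducer of the acute phase proteins.

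Library depth was 11418527 to 13998946 counts, and a gene at 3 counts or fewer in a library, equal to 0.207 to 0.262 CPM, was counted as at the floor that this depth allows. CPM is edgeR's depth-normalised count, computed on TMM-scaled library totals. Values of single samples are given in the order of their numbers, the controls first. Floors and counting intervals cover counting error only. The label HepG2 was checked against 13 genes of hepatocytes and the HepG2 line. ALB had 0 counts in 5 libraries and 8 in CLs-1, AFP had at most 1 count in any library, and TTR and APOH had none. Of the 13 genes, 10 were at the floor in every library other than CLs-1. The summed level of all 13 was 0.433 to 1.64 CPM in the control group and 0.175 and 0.345 CPM in CLs-3 and CLs-2. The defining markers of the labelled cell type were therefore at or near 0 in the 5 libraries other than CLs-1. Of 5 epithelial markers, KRT8 and KRT18 had at least 9024 counts in any library, while EPCAM had at most 7, CDH1 at most 9 and KRT19 1 to 61. Of 7 fibroblast markers, COL3A1 had 7456 to 11358 counts, COL1A1 764 to 2472 and PDGFRB 167 to 275. The others were low outside CLs-1, where COL1A2 had at most 2 counts, THY1 at most 1, DCN at most 5 and LUM 0.

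CLs-1 stood apart from the other libraries. In CLs-1, 62 genes reached 15 counts or more at a CPM over 8 times that of any other library. Control-3 had 1 such gene and the other 4 libraries had 0. In CLs-1 the summed counts were 137 for the hepatocyte markers, 476 for 3 hemoglobin genes and 539 for 5 steroidogenic genes. In the other libraries these sums were 2 to 19, 0 to 4 and 11 to 32. COL1A2, a fibroblast collagen, had 1044 counts in CLs-1 and 0 to 2 in the rest. Marker sums also moved with the groups. The 8 leukocyte markers summed to 14.4 to 18.3 CPM in the control group and 20.6 to 23.9 CPM in the CLs group, most of it CD68, a lysosomal protein of macrophages and other cells (12.8 to 17.2 CPM and 16.9 to 23.2 CPM). CSF1R, a macrophage receptor, had 8, 12 and 10 counts in the control samples and 27, 38 and 5 counts in the CLs samples, and PTPRC, a marker of leukocytes in general, had at most 1 count in any library. The 5 epithelial markers, mostly KRT8 and KRT18, summed to 3169 to 4773 CPM in the control group and 1418 to 1957 CPM in the CLs group. The sums of the 7 fibroblast and of the 5 endothelial markers overlapped between the groups. The part of the leukocyte and epithelial sums in the values given here was not tested. Values that rest on CLs-1 are given with and without it.

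**Figure D1:**
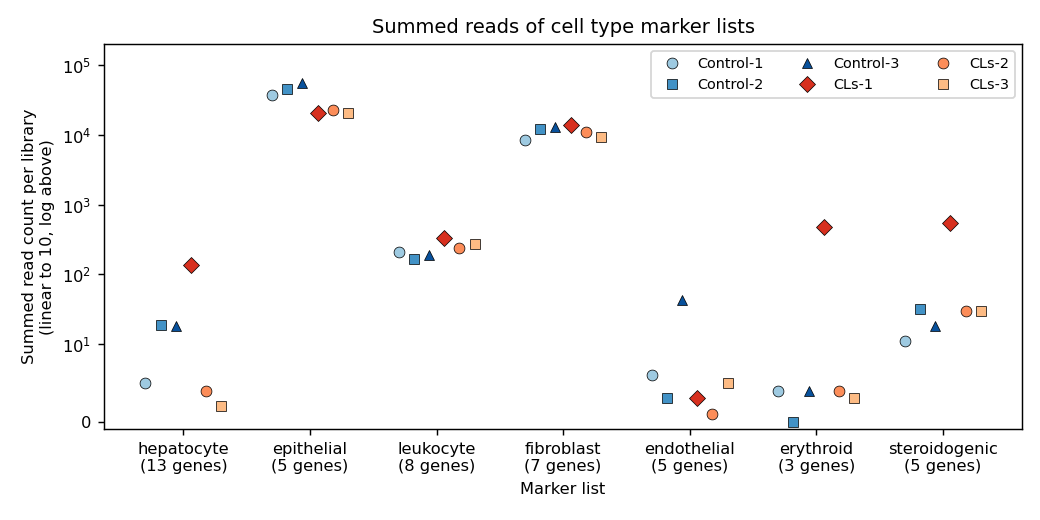
Summed read counts (linear to 10, log above) of 7 lists of cell type markers, 1 symbol per library. The hepatocyte, erythroid and steroidogenic sums of CLs-1 (137, 476 and 539) lie above those of the other 5 libraries, which hold at most 19, 4 and 32.

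The neutrophil chemokines lie in a cluster on chromosome 4, in the RefSeq gene order IL8, CXCL6, PF4V1, CXCL1, PF4, PPBP, CXCL5, CXCL3 and CXCL2. The RefSeq windows of 300 bases around the annotated start (GRCh38.p14) are shown for the 4 members of this cluster because they share a short sequence while their read counts differ. IL8 is at chr4:73740319-73740618 and CXCL1 at chr4:73869143-73869442, both on the plus strand. CXCL3 is at chr4:74038640-74038939 and CXCL2 at chr4:74099146-74099445, both on the minus strand. Each is written 5′ to 3′ along its gene, and the capitals mark GGAATTTCC, an NF-kB type motif searched on both strands.
IL8: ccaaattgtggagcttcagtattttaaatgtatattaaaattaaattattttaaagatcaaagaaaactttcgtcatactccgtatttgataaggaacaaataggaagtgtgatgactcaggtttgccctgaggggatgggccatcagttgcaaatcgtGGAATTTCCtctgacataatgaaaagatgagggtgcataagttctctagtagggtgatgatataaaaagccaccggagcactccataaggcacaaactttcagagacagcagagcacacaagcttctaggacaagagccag
CXCL1: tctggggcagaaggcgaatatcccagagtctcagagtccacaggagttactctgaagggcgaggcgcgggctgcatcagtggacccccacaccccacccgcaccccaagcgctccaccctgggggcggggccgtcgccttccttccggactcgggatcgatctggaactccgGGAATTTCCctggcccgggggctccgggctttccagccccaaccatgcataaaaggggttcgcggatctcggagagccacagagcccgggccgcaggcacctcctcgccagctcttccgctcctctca
CXCL3: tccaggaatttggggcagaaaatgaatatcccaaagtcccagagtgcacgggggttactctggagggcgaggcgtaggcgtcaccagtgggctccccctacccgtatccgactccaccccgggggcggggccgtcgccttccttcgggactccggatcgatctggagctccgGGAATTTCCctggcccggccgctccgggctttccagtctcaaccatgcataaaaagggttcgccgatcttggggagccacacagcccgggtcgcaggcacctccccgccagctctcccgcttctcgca
CXCL2: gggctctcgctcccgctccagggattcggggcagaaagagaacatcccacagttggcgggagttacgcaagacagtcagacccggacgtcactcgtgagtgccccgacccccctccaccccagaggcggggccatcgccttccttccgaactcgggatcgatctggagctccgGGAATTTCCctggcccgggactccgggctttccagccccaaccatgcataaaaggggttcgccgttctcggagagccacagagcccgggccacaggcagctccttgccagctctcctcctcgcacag

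GGAATTTCC was found at bases 160 to 168 of the IL8 window, 173 to 181 of the CXCL1 and CXCL3 windows and 174 to 182 of the CXCL2 window. Of 35116 RefSeq windows of this length, 0.461% hold it. The looser GGNNTTTCC, which includes it, is in 6.26% of the windows. It was also found at bases 179 to 187 for IL6 and, on the other strand, at bases 172 to 180 for CCL20. A further match to it, GGGCTTTCC, lay at bases 198 to 206 of the CXCL1, CXCL2 and CXCL3 windows. An AP-1 type motif, TGANTCA, which is in 7.71% of the windows, was found at bases 114 to 120 for IL8 and in the windows of IL1A. Neither NF-kB letter pattern was in the windows of IL1A and IL1B. These matches are descriptions of the letters alone. CXCL1, CXCL2 and CXCL3 are close relatives, and in GENCODE 29 transcripts 5.73%, 9.24% and 5.26% of their 50-base windows also occur in another of the 3. None of their 100-base windows do, so short reads alone could have been split between them.

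The neutrophil chemokines had few reads, and those were uneven between libraries. IL8 had 1, 2 and 8 counts in the control samples and 28, 1 and 2 counts in the CLs samples. It was over the floor only in Control-3 and CLs-1. IL8 averaged 0.315 ± 0.323 CPM among controls and 0.732 ± 1.04 CPM under CLs (SD, n = 3 each), a difference smaller than the spread in the CLs group. CLs-1 was 2.83 times Control-3, with an exact 95% counting interval of 1.25 to 7.17, and the counts of CLs-2 and CLs-3 were no higher than those of Control-2.

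CXCL1 had 15 counts in CLs-1 and 0 counts in each of the other 5 libraries. Its level in CLs-1, 1.04 CPM, was at least 3.95-fold higher than the floor of any other library, and without CLs-1 no read of CXCL1 was left. CXCL3 had 5, 4 and 12 counts in the control samples and 7, 4 and 1 counts in the CLs samples. For CXCL3 the highest library was a control and the lowest was CLs-3, and the groups overlapped. It averaged 0.602 ± 0.371 CPM among controls and 0.305 ± 0.201 CPM under CLs (SD, n = 3 each).

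CXCL2 was the neutrophil chemokine with reads over the floor in every library. It had 6, 6 and 13 counts in the control samples and 26, 11 and 13 counts in the CLs samples. The lowest CLs sample (0.949 CPM) was below the highest control (1.11 CPM), so the groups overlapped. CXCL2 averaged 0.717 ± 0.343 CPM among controls and 1.29 ± 0.445 CPM under CLs (SD, n = 3 each). Its log2 fold change was 0.86 (standard error 0.44, 95% interval -0.10 to 1.83), and its adjusted p in edgeR was 0.89 (quasi-likelihood test). Without CLs-1 it was 0.53, at an edgeR adjusted p of 0.783. Without Control-3, or without CLs-2, every remaining CLs sample of CXCL2 lay above the remaining controls, with log2 fold changes of 1.32 and 1.04. Those were the samples that made the groups overlap, and without any other single sample the groups still overlapped. Of all tested genes, 21.9% without Control-3 and 18.3% without CLs-2 had groups that did not overlap.

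The sum over IL8, CXCL1, CXCL2 and CXCL3 was 12, 12 and 33 counts in the control samples and 76, 16 and 16 counts in the CLs samples. CLs-2 and CLs-3 thus lay between the controls, and CLs-1 lay above all of them. The rest of the cluster had reads in CLs-1 alone. CXCL5, a further CXCR2 ligand that the study names, had 42 counts in CLs-1 and 0 elsewhere, at least 11.1-fold above the floor of any other library. PF4, a platelet chemokine, had 6 counts in CLs-1 and 0 elsewhere, and PPBP had 1. CXCL6 and PF4V1 had 0 counts in all 6 libraries.

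**Figure D2:**
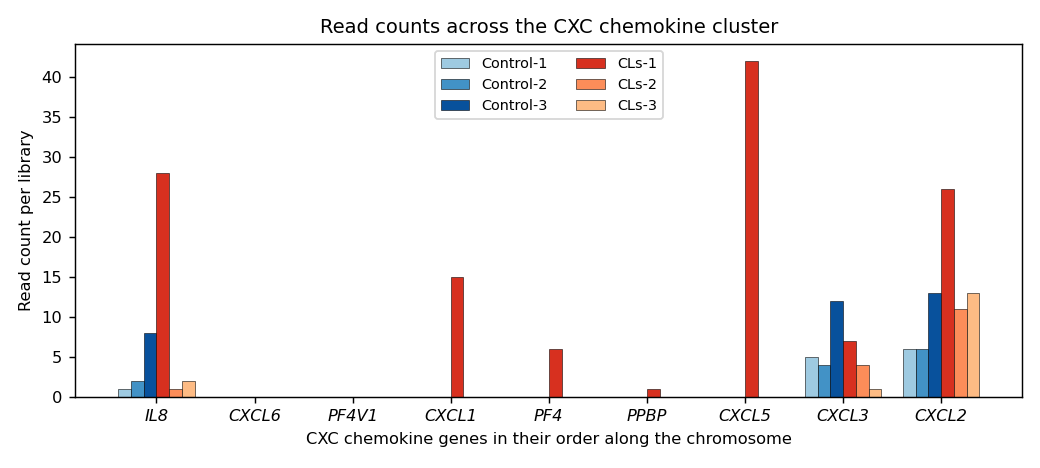
Read counts per library of the 9 CXC chemokine genes in their order along the chromosome, 1 bar per library. IL8, CXCL1 and CXCL5 reach 28, 15 and 42 counts in CLs-1, while the other 5 libraries hold at most 8, 0 and 0.

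CCL2 and LIF had the most reads of the 10 genes, and neither differed between the groups beyond the spread. CCL2 had 82, 55 and 69 counts in the control samples and 88, 69 and 59 counts in the CLs samples. All 3 CLs samples lay within the range of the controls in CPM. CCL2 averaged 5.92 ± 1.18 CPM among controls and 5.73 ± 0.499 CPM under CLs (SD, n = 3 each). Its log2 fold change was -0.04 (standard error 0.23) at an edgeR adjusted p of 0.999, and the 95% interval covers folds of 0.682 to 1.38.

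LIF had 232, 169 and 164 counts in the control samples and 245, 126 and 164 counts in the CLs samples. Control-1 and CLs-1 were the higher samples of their groups, CLs-2 was the lowest of all, and the groups overlapped. LIF averaged 16.2 ± 3.36 CPM among controls and 14.05 ± 3.04 CPM under CLs (SD, n = 3 each). Its log2 fold change was -0.21 (standard error 0.22) at an edgeR adjusted p of 0.998, and the 95% interval covers folds of 0.622 to 1.21. Without CLs-1 the log2 fold changes were -0.09 for CCL2 and -0.36 for LIF, with adjusted p-values of 0.945 and 0.655.

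Levels of different genes were compared per length of the longest coding transcript in GENCODE 29, as CPM per kilobase. On that scale CCL2 was the highest, at 7.987 ± 1.597 among controls and 7.73 ± 0.674 under CLs (SD, n = 3 each). LIF followed, with 4.09 ± 0.847 and 3.54 ± 0.766 CPM per kilobase. The lowest library of CCL2 (6.40) was above the highest of LIF (5.07), although LIF had the larger counts. CXCL2 came next in both groups, with 0.588 ± 0.282 and 1.06 ± 0.366 CPM per kilobase. CXCL3 (0.560 ± 0.345), IL6 (0.321 ± 0.256) and IL8 (0.184 ± 0.190) of the control group differed from their neighbours in this order by less than their SDs.

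IL6 was near the floor, with 10, 6 and 1 counts in the control samples and 5, 5 and 1 counts in the CLs samples. Control-3 and CLs-3 were both at the floor, and the groups overlapped. IL6 averaged 0.490 ± 0.391 CPM among controls and 0.288 ± 0.179 CPM under CLs (SD, n = 3 each). Without Control-3, the control that made the groups overlap, the remaining 2 controls lay above all 3 CLs samples. The groups then did not overlap in 21.9% of all tested genes, IL6 not being among those tested. The other 3 genes were at or under 3 counts in every library. CCL20 had 2 counts in CLs-1 and 0 elsewhere, IL1A had 2 counts in Control-3 and 0 elsewhere, and IL1B, the inflammasome-processed interleukin-1, had 0 counts in all 6 libraries. For IL1B a count of 0 allows up to 0.262 CPM in the shallowest library. A change in CCL20, IL1A or IL1B was not detectable at this depth.

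**Figure D3:**
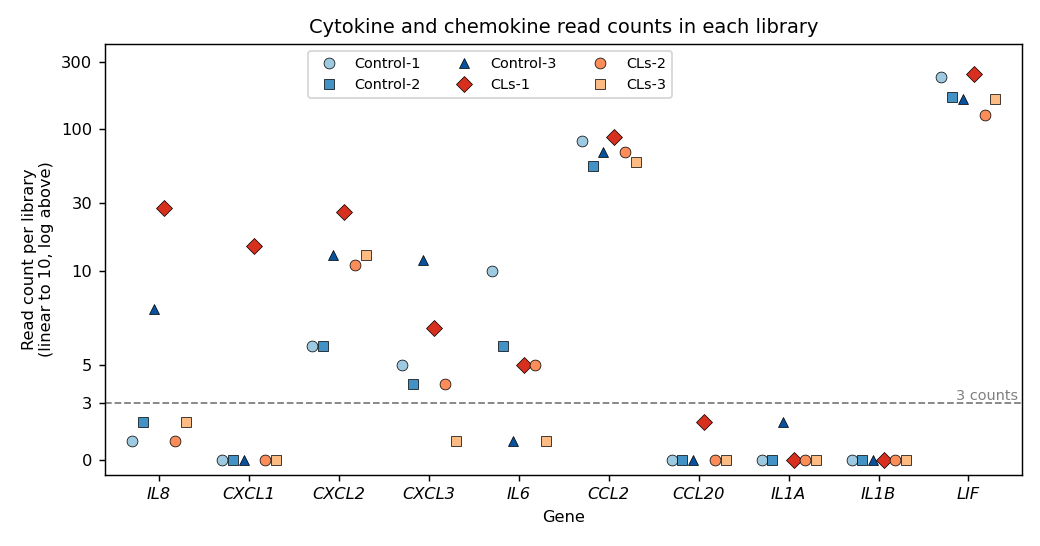
Read counts of the 10 cytokine and chemokine genes in each library (linear to 10, log above), with the floor of 3 counts as a dashed line. LIF and CCL2 are between 55 and 245 counts in every library, CXCL2 between 6 and 26, and CCL20, IL1A and IL1B are at 2 counts or fewer.

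In all, 3 of the 10 genes (CXCL2, CCL2 and LIF) had enough reads to be tested, 4 more (IL8, CXCL1, CXCL3 and IL6) were over the floor in at least 1 library, and 3 were under it in every library. Of the 3 tested, edgeR called 0 at a Benjamini-Hochberg adjusted p under 0.05 and a fold above 1.5 or below 0.67, against 0.0864% of the 15047 genes tested. At an unadjusted p under 0.05 the count was also 0, against 5.81% of all genes tested, and DESeq2's Wald test called 0. With the replicate number as a block, 68 of all genes were called in place of 13, and again 0 of the 3. When every gene with a read was tested, IL8, CXCL1, CXCL3 and IL6 were not called either, with adjusted p-values of 0.885, 0.266, 0.885 and 0.885 from edgeR's test. In none of the 3 tested genes were the groups apart, that is, without overlap in CPM. This separation was found in 11.5% of all genes tested, and 3 genes are too few to set against that share. The groups of the other members overlapped too. CXCL1, CCL20, IL1A and IL1B had 0 counts in samples of both groups and so could not separate. An exact two-sided permutation test of 3 against 3 cannot go below p = 0.10, and for CXCL2, CCL2 and LIF it gave p = 0.2, 1 and 0.5.

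LIF was the gene with the most counts of the 10, and its profile over the 6 samples was compared with all tested genes. The closest were LOC727967, TRIB2 and GEMIN5, with root mean square differences of 0.070, 0.076 and 0.082 in log2 level relative to the controls. The median over tested genes was 0.362, and 607 genes were within 0.2. GEMIN5, a protein of the complex that assembles spliceosomal particles, had 1433, 1113 and 1119 counts in the control samples and 1755, 898 and 1094 in the CLs samples.

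The receptors through which these cytokines act were measured as well. The chemokine receptors CXCR1, CXCR2, CCR2, CCR6 and ACKR1 (listed as DARC), and the antagonist IL1RN, had 0 counts in all 6 libraries. Of the 12 genes of this list, 5 had enough reads, 0 were called by edgeR or by DESeq2, and 1 (IL6R) had an unadjusted p under 0.05, with the higher level under CLs, against 2.19% of all genes tested in that direction. Their median log2 fold change was 0.01, the same as over all genes tested (0.01). LIFR, the LIF-binding subunit, was at 58.9, 67.7 and 89.2 CPM in the control samples and 72.6, 40.2 and 48.0 CPM in the CLs samples. CLs-2 and CLs-3 were below every control and CLs-1 was not, and the log2 fold change of LIFR was -0.42 (standard error 0.22) at an edgeR adjusted p of 0.9. Without CLs-1 it was -0.71, with an adjusted p of 0.339. IL1RAP, the accessory chain of the interleukin-1 receptor, was at 43.0 ± 3.70 CPM (SD, n = 3) and 42.03 ± 6.67 CPM (SD, n = 3).

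IL6R and IL6ST are named after their values were seen, since the rule for naming genes did not include them. IL6R, which binds IL6, was at 5.11, 4.22 and 6.51 CPM in the control samples and 9.61, 8.89 and 11.3 CPM in the CLs samples. Every CLs sample was above every control. Its log2 fold change was 0.91 (standard error 0.23, 95% interval 0.41 to 1.41), but its edgeR adjusted p was 0.26, against 0.0942 with the replicate number as a block and 0.109 from DESeq2. Without CLs-1 it was 0.93, with an adjusted p of 0.319 from edgeR. IL6ST, the signalling subunit for IL6 and LIF, was at 37.9 ± 2.41 CPM among controls and 38.1 ± 16.0 CPM under CLs (SD, n = 3 each). CLs-1 was above the controls (56.3 CPM), and CLs-2 and CLs-3 were below them (25.8 and 32.4 CPM).

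**Figure D4:**
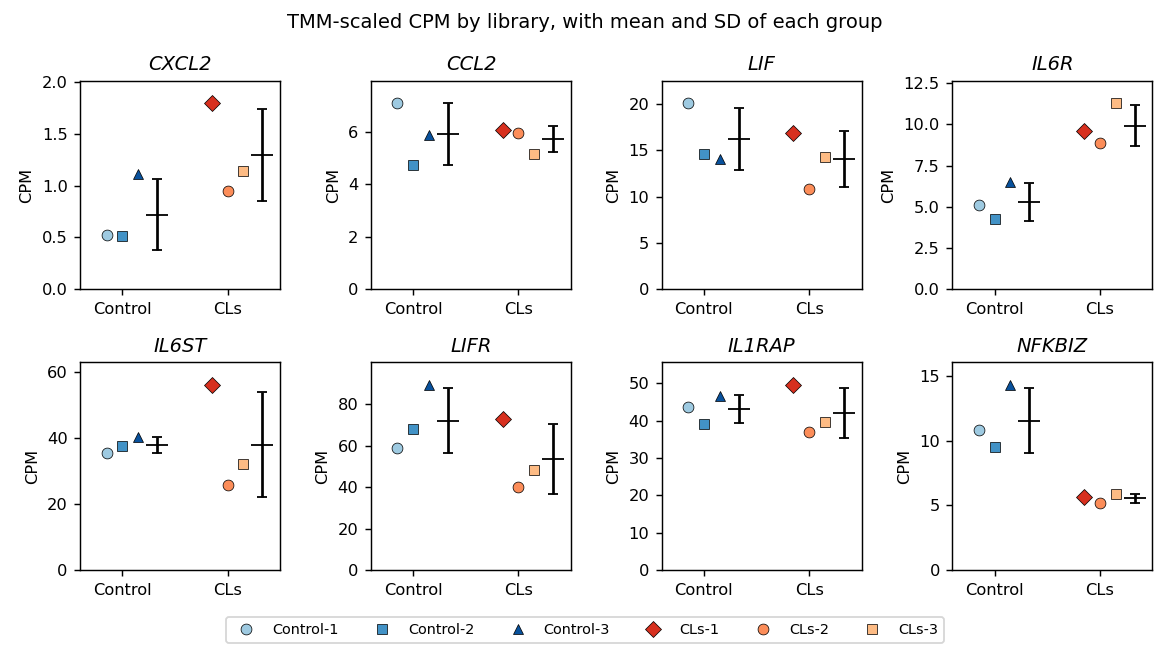
TMM-scaled CPM of 8 genes by library, with the mean (line) and SD (bars) of each group of 3. The 3 CLs samples of IL6R (8.89 to 11.3 CPM) lie above the controls and those of NFKBIZ (5.18 to 5.86 CPM) below them, while CXCL2, CCL2, LIF, IL6ST, LIFR and IL1RAP overlap.

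Among 32 further cytokines and chemokines, 10 had enough reads to be tested and 15 were at the floor in every library. None of the 10 was called by edgeR or DESeq2, 0 had an unadjusted p under 0.05, and the median log2 fold change was -0.15. With no filter on low counts, CXCL5 was called, on its reads in CLs-1 alone. MIF, a constitutively made cytokine, had the most reads, at 250.2 ± 9.36 CPM among controls and 269.6 ± 43.2 CPM under CLs (SD, n = 3 each). TGFB1, a growth factor that restrains inflammation, was at 29.1 ± 9.19 and 29.5 ± 6.00 CPM (SD, n = 3 each). CCL5, a T cell and monocyte chemokine named after its values were seen, had 94, 53 and 567 counts in the control samples and 139, 79 and 167 in the CLs samples. Its log2 fold change was -0.98 with all samples and 0.70 without Control-3, at edgeR adjusted p-values of 0.966 and 0.885. Blocking on the replicate number gave -0.42.

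A further list mixed NF-kB subunits and regulators, which act upstream of these cytokines, with other targets of NF-kB. In it, 19 of 21 genes had enough reads, and 0 were called by edgeR. Lower values in the CLs group were seen for 16 of the 19, with a median log2 fold change of -0.25, against 47.9% lower and a median of 0.01 over all genes tested. An unadjusted p under 0.05 was found for 3 of the 19 (NFKBIZ, NFKB2 and TNIP1), all lower, as it was in that direction for 3.62% of all genes tested. The groups were apart in 5 of the 19, all lower, against 6.18% of all genes tested. The study had already reported NFKBIZ as lower in these libraries by its own test, and measured it by qRT-PCR as well. The all-gene shares are therefore no independent comparison for this list. Without Control-3 the median was -0.10. NFKBIZ, an atypical IkB protein that NF-kB needs to induce IL6 and other secondary response genes, was at 10.8, 9.48 and 14.3 CPM in the control samples and 5.67, 5.18 and 5.86 CPM in the CLs samples. Its log2 fold change was -1.05 (standard error 0.22), and its edgeR adjusted p was 0.162, against 0.057 with the replicate number as a block and 0.0177 from DESeq2, which called it. NFKB2, the p100 and p52 subunit, named after its values were seen, was at 75.3, 77.7 and 87.8 CPM in the control samples and 48.1, 58.3 and 57.5 CPM in the CLs samples. Its groups were apart, and its log2 fold change was -0.56 (standard error 0.14) at an edgeR adjusted p of 0.258. RELA, the p65 subunit, was at 87.6 ± 3.09 and 73.6 ± 3.29 CPM (SD, n = 3 each), and its log2 fold change was -0.25 at an edgeR adjusted p of 0.872. TNFAIP2, a TNF-induced gene, was at 90.8 ± 51.1 and 62.3 ± 18.2 CPM (SD, n = 3 each) at an edgeR adjusted p of 0.943, and its groups overlapped.

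Downstream, most of the acute phase proteins of the liver had too few reads to be tested. Of the 13 hepatocyte markers, 10 were likewise at the floor in every library other than CLs-1, with FGB in both lists. Whether the low reads of acute phase genes relate to the cytokines was not tested. CRP, HP and LBP had 0 counts in all libraries, and of 23 acute phase and STAT3 target genes 8 had enough reads. None of the 8 was called by edgeR or DESeq2, their median log2 fold change was -0.20, and 3 (STAT3, A2M and CEBPD) had an unadjusted p under 0.05, all lower, against 3.62% of all genes tested in that direction. Without Control-3 the median was 0.10. STAT3 was at 322.5 ± 29.1 CPM among controls and 262.6 ± 6.26 CPM under CLs (SD, n = 3 each) at an edgeR adjusted p of 0.826. A2M, a protease inhibitor, was at 83.4 ± 32.3 and 45.5 ± 11.5 CPM (SD, n = 3 each) at an edgeR adjusted p of 0.405, and it was called only when no filter on low counts was used (adjusted p = 0.0129 from edgeR). SERPINA3, named after its values were seen, had 36 counts in CLs-1 and 0 or 1 elsewhere.

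The list of interleukin-1 processing genes had 2 of 9 genes with enough reads, and none was called by edgeR or DESeq2. NLRP3, NLRC4 and AIM2, sensors of inflammasomes, had 0 counts in all 6 libraries. CASP4, which senses bacterial lipopolysaccharide, was at 31.7 ± 10.5 and 33.4 ± 10.1 CPM (SD, n = 3 each), and GSDMD, the pore-forming protein that caspases cleave, was at 21.1 ± 6.27 and 24.3 ± 3.37 CPM. Of 7 factors that bind the AU-rich elements typical of cytokine mRNAs or degrade such mRNAs, all 7 had enough reads and none was called by edgeR or DESeq2. Their median log2 fold change was -0.03. KHSRP was at 208.8 ± 5.91 and 183.5 ± 5.31 CPM and HNRNPD at 159.5 ± 20.0 and 157.2 ± 21.5 CPM (SD, n = 3 each). In the interleukin-1 processing and AU-rich lists, no gene had an unadjusted p under 0.05.

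**Figure D5:**
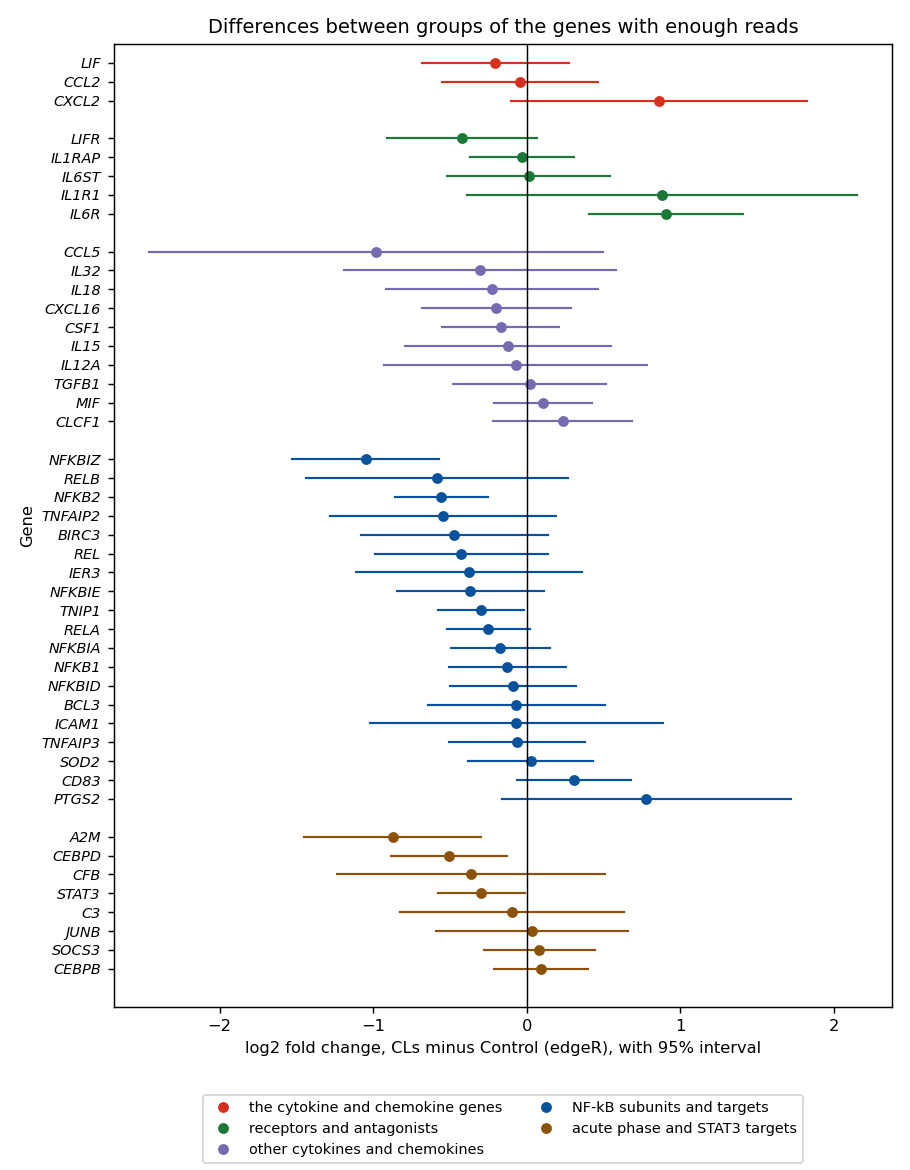
Log2 fold changes (CLs minus control, edgeR) with 95% intervals of the genes with enough reads in 5 lists, 1 row per gene. The intervals of CXCL2, CCL2 and LIF include 0, and those of IL6R (0.41 to 1.41), NFKBIZ (-1.53 to -0.57), NFKB2 (-0.86 to -0.25), TNIP1, STAT3, CEBPD and A2M do not, though none of these 7 passed the adjusted threshold in edgeR.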

How the data were processed

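RNA-seq counts of 3 control and 3 CLs-treated samples were analysed, and the samples were grouped by their labels. The authors mapped reads with MapSplice and deposited whole-number counts per gene symbol, without normalization. The submitters' processing notes name HTSeq 0.6.1, hg19 and GRCh37. The strand setting and the handling of multiply mapped reads are not given in the sources used here. The RefSeq and GENCODE 29 sequences are of GRCh38, another build than that of the counts.

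All 15047 genes that passed edgeR's filterByExpr (min.count 10) were fitted with edgeR 4.0.16 in R 4.3.3, with TMM scaling, a quasi-likelihood F test on condition alone and Benjamini-Hochberg adjustment. Standard errors came from the F statistic. The study's own test was not run because its package was not installed. edgeR was also run on simulated counts with known changes. These were drawn from its own fitted dispersions with no outlying library such as CLs-1, and no result given here rests on them. Alternatives were DESeq2 1.42.0, other scaling factors, other filters, no fold criterion, a block for the replicate number, and fits without each single sample. The blocked fit treated samples with the same replicate number as paired, by the numbers in the sample titles alone. Deviations from the group means correlated at 0.106, 0.112 and 0.32 between samples of numbers 1, 2 and 3. Such deviations cancel within each group, so some pairing must correlate positively. These values therefore cannot show that the samples were paired, and the blocked fit is an alternative only.

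The genes and lists were chosen with earlier results of these data known. Named genes were the 10 members, in each list the 2 with the most counts and any called, CXCL5 and NFKBIZ, and the 3 genes with the profile closest to LIF, on log2(CPM + 0.5). IL6R, IL6ST, CCL5, NFKB2, TNIP1, CEBPD, SERPINA3 and list genes given at 0 were named after their values were seen. For marker lists, defining genes at or near 0 were named. RefSeq windows matched 8 of the 10 members, all but CCL2 and LIF.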

Additional observations from a re-analysis of the deposited data

How the results depend on the processing

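None of the 10 cytokine and chemokine genes was called under any of the alternatives, nor with each sample left out. Most of these fits tested CXCL2, CCL2 and LIF alone, so the other genes could not be called in them. DESeq2 gave an adjusted p to CCL2 and LIF alone. The log2 fold changes of CXCL2, CCL2 and LIF kept their direction under all of them, except that CCL2 turned from -0.04 to 0.11 without Control-1 and to 0.02 without CLs-3. With 1 sample left out they ranged from 0.53 to 1.32 for CXCL2, from -0.18 to 0.11 for CCL2 and from -0.36 to -0.02 for LIF. CXCL2 could not be tested at 30 counts in 3 samples, and DESeq2 gave it no adjusted p. The number of genes called overall was 13. It was 104 with DESeq2, 171 with no filter on low counts, 68 with the replicate block, 8 with library totals only and 3 to 7 without 1 sample, each of the 6 samples included. In the cytokine genes and the lists of receptors, further cytokines, NF-kB, acute phase, interleukin-1 processing and AU-rich genes, the replicate block changed no call. The number of cytokine genes with groups apart was 0, and 0 to 2 without 1 sample (CXCL2 and IL6 without Control-3, CXCL2 without CLs-2), where 16.7% to 27.3% of the tested genes were apart. IL6 was not among the tested genes.

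With DESeq2, 1 NF-kB gene was called (NFKBIZ). With no filter on low counts, 1 NF-kB gene (NFKBIZ), 1 further chemokine (CXCL5) and 2 acute phase genes (A2M and SERPINA3) were called. Both settings test genes with few reads, and list medians moved with them. With DESeq2 and with no filter, the median log2 fold change was then 0.45 and 0.46 for receptors and 0.0065 and 0.0470 for further cytokines. For acute phase genes it was 0.58 and 0.51. Among added acute phase genes, FGA, FGB, FGG and SERPINA3 had 13, 12, 15 and 36 counts in CLs-1 and 0 or 1 elsewhere. SAA1 alone of those added was lower (-1.17 and -1.13). Neither setting was run without CLs-1, so the part of that library in these medians was not tested. With 1 sample left out, the medians ranged from -0.16 to -0.0192 for further cytokines, from -0.30 to -0.10 for NF-kB genes and from -0.33 to 0.10 for acute phase genes. Depth limits all statements on IL8, CXCL3, IL6, CCL20, IL1A and IL1B. IL8 had 28 of its 42 counts in CLs-1, and CXCL1 is known from CLs-1 alone.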
